A study of Mus musculus with 12 samples.

Results

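Aggrecan is held in cartilage by hyaluronan and link protein, and 10 genes of this assembly were examined: the proteoglycans Acan and Vcan, the link protein gene Hapln1, the hyaluronan synthase genes Has1, Has2 and Has3, the hyaluronidase genes Hyal1 and Hyal2, the hyaluronan receptor gene Cd44, and Tnfaip6, whose product TSG-6 binds hyaluronan. The set of genes was drawn up with earlier results of these data known, and within it probes were taken by gene symbol alone, every probe that carries the symbol being included. The table used here held 22 such probes of 8 genes among 46632 probes in all, and Has3 and Tnfaip6 had no probe under these symbols and were not analysed here. A probe was called detected on an array when its signal stood above the array's negative controls at a detection p under 0.05, and it was kept for testing when detected on at least 4 of the 12 arrays. This left 10 probes of 7 genes among 18200 kept probes. They were 2 probes each of Acan, Hyal1 and Hyal2 and 1 probe each of Hapln1, Has1, Has2 and Cd44. The other 12 probes, which were the 3 of Vcan, 1 of Has1 and 8 of Cd44, did not pass, and no difference was tested for them.

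The RNA came from femoral head cartilage of 21-day-old TS-4/5∆cat mice. In these mice the exons for the catalytic domains of both Adamts4 and Adamts5 are deleted in frame, and every group, the untreated one included, carried this deletion, so no wild-type cartilage enters any comparison. The explants were left untreated, or received IL-1α at 10 ng/mL or retinoic acid at 10 µM, for 3 days in serum-free medium, after 24 h in medium with 10% serum according to the sample labels. Each treatment had 4 arrays, with 2 from the Donut line in batch 1 and 2 from the Gertrude line in batch 2, so that batch and mouse line cannot be told apart. The labels put 4 hips in each well. The sample labels, the design text and the paper's methods give different numbers of replicates per treatment, and the methods speak of separate, unpooled mice, so that what each array stands for is not settled. The SDs given here therefore describe the spread between the 4 arrays of a treatment, with the gap between batches included. The adjusted p-values rest on the spread between arrays left after batch is removed, estimated in part from all kept probes. Neither can be read as a spread between animals. Levels are given as background-corrected, quantile-normalized log2 intensities, on which a difference of 1 is a doubling of the signal, and a level of one probe cannot be set against that of another.

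Aggrecan is the large chondroitin sulphate proteoglycan whose fixed charge draws water into cartilage and lets it bear load. Its globular end binds hyaluronan, a very long unbranched polysaccharide, and link protein clamps that bond, so that many aggrecan molecules are held on one hyaluronan strand. Hyaluronan is spun out through the plasma membrane by the hyaluronan synthases, cut by hyaluronidases, and held at the chondrocyte surface and taken up by CD44. Interleukin-1 and retinoic acid are both long used to drive the loss of aggrecan from cartilage in culture.

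The stretch around the annotated start of a gene is shown for 5 members, as the clearest falls (Acan, Hapln1), the members on which the treatments differed in direction (Has1, Hyal2) and a member that rose with IL-1α (Cd44). Each run holds 250 bases before and 50 bases after the start, read 5′ to 3′ on the strand of the gene, from RefSeq on build GRCm38.p6, which had such a stretch for 8 of the 10 genes. Capitals mark a match to the NF-kappaB consensus in Acan and Hyal2 and to the hexamer AGGTCA, the core that retinoic acid receptors bind in repeats, in Has1, where it lies on the other strand.
Acan, chr7:79052976-79053275, + strand: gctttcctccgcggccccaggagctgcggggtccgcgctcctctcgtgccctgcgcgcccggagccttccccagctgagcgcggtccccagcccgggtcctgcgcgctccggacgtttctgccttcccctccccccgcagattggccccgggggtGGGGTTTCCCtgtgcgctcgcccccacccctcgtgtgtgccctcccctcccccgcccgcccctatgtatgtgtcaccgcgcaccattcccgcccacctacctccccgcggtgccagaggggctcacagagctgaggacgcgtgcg
Hapln1, chr13:89540386-89540685, + strand: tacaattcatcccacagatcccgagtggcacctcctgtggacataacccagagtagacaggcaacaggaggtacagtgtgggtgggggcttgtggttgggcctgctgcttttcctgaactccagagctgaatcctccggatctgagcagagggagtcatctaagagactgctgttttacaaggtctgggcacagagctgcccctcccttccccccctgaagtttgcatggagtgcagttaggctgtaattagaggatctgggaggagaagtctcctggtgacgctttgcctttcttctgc
Has1, chr17:17855139-17855438, - strand: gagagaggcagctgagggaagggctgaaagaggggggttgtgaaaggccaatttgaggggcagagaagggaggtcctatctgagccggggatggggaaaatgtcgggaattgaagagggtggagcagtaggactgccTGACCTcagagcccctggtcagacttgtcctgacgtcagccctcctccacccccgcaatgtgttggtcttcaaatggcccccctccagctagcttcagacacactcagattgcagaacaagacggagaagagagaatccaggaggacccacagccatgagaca
Hyal2, chr9:107568913-107569212, + strand: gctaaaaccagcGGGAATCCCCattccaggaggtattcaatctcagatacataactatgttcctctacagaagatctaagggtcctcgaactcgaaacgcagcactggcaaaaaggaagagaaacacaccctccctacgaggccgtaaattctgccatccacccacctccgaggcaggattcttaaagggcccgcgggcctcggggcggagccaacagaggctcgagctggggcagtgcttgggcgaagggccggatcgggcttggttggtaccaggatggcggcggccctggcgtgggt
Cd44, chr2:102901616-102901915, - strand: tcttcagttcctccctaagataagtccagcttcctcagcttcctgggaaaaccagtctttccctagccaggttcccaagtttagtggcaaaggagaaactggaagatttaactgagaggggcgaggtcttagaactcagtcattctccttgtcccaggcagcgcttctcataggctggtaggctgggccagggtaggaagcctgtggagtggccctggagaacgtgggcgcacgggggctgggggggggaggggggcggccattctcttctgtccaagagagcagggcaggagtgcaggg
The NF-kappaB consensus, searched on both strands, was found 95 bases before the start in Acan and 238 bases before it in Hyal2, 2 of the 8 genes, and in 8.46% of all 32851 stretches of the same kind. AGGTCA was found 113 bases before the start in Has1 and also in Tnfaip6, 2 of the 8 genes, and in 16.3% of all stretches. The AP-1 motif TGANTCA was found in Tnfaip6 alone, against 7.81% of all stretches, TATAAA in none of the 8 against 13.6%, and GGGCGG in 6 of the 8 against 35.7%. None of the first 3 motifs was found in Hapln1, Cd44, Vcan or Hyal1. These are matches of letters within the windows and no binding was measured. In the RefSeq order of genes Acan lies next to Hapln3, Hapln1 next to Vcan, and Hyal1 next to Hyal2.

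The arrays were first checked against the labels. Cyp26a1, which encodes a retinoic acid-degrading enzyme, was detected on all 4 retinoic acid arrays and on none of the other 8, at 9.39 ± 0.34 (SD, n = 4) for its brighter probe. Nos2, the inducible nitric oxide synthase gene, was detected on all 4 IL-1α arrays and on no others, at 8.93 ± 0.06 (SD, n = 4) for its brighter probe. Adamts4 was detected in all groups, at 8.88 ± 0.28 in untreated, 8.76 ± 0.12 in IL-1α and 9.24 ± 0.39 in retinoic acid arrays (SD, n = 4 each), and Adamts5 on 1 of 12 arrays. Where these probes lie relative to the deleted exons was not determined, so they check nothing about the deletion. Between 13786 and 14965 probes were detected on the arrays of batch 1 and between 16732 and 19485 on those of batch 2. Over all kept probes the arrays of one treatment correlated at 0.983 to 0.995 within a batch and at 0.868 to 0.902 across batches, and arrays of different treatments within a batch at 0.932 to 0.968. The batches therefore stood further apart than the treatments. Values by batch are given for member probes only, and the pathway and marker genes are described over both batches.

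Aggrecan, link protein and Has2 signals were lower with either agent, and by more with retinoic acid, while Cd44 rose with IL-1α alone and Hyal2 rose with retinoic acid alone. With IL-1α, 7 of the 10 member probes passed the test against untreated, 2 higher and 5 lower, where 29.3% of all kept probes did, 15.2% higher and 14.1% lower. With retinoic acid, 7 of 10 passed against untreated, again 2 higher and 5 lower, where 35.4% of all kept probes did, 18.2% higher and 17.1% lower. Between retinoic acid and IL-1α, 8 of 10 passed, 2 higher and 6 lower, against a background of 31.1%, 15.2% higher and 15.8% lower. The median difference over the 10 probes was -0.21, -0.27 and -0.79 on the log2 scale in these comparisons, and over all kept probes 0.02, 0.02 and -0.03. Differences larger than 1 on the log2 scale were found for 4, 4 and 5 of the 10 probes, against 5.29%, 9.18% and 8.45% of all kept probes. The comparisons share arrays, in that the same 4 untreated arrays serve both agents, and 2 probes of a gene are readings of the same RNA. Has1, detected on no retinoic acid array, counts among the lower probes in both comparisons with retinoic acid.

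**Figure D1:**
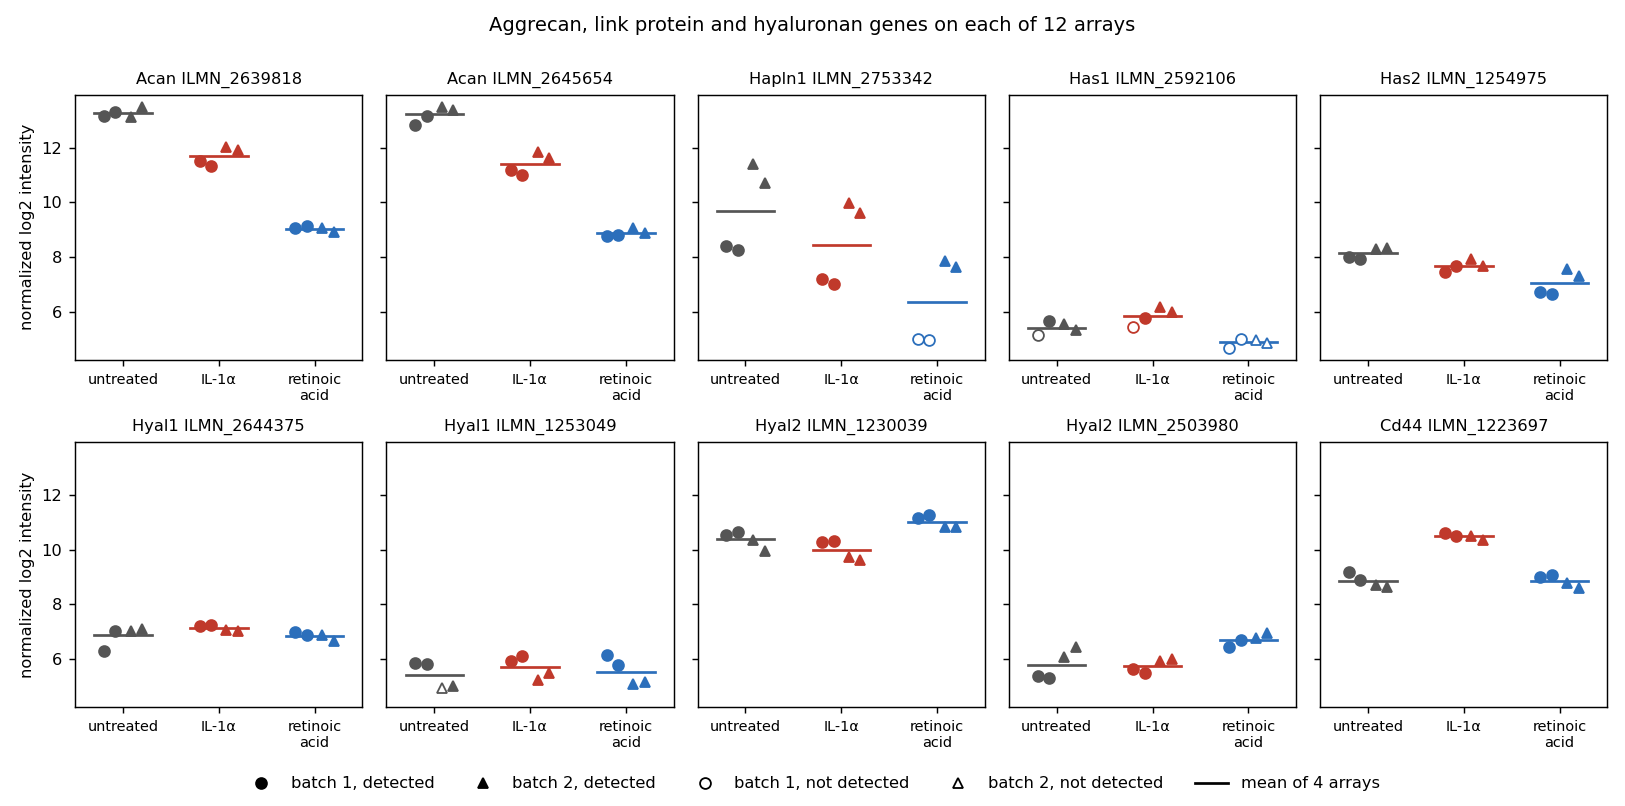
Normalized log2 intensity (y axis) of the 10 kept probes on each of the 12 arrays, by treatment (x axis), with circles for batch 1 and triangles for batch 2, open symbols for arrays on which the probe was not detected, and a line at the mean of 4 arrays. Acan runs from about 13.26 in untreated to 9.04 in retinoic acid arrays with no overlap, and Hapln1 shows a gap of about 2.7 between the batches in untreated and IL-1α arrays.

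Acan, the gene for aggrecan itself, gave the largest differences among the members. Its probe ILMN_2639818 read 13.15, 13.30, 13.13 and 13.48 in the 4 untreated arrays, with batch 1 first. It read 11.53, 11.34, 12.04 and 11.90 with IL-1α. It read 9.06, 9.13, 9.05 and 8.92 with retinoic acid. The 3 groups did not overlap, and the order of untreated over IL-1α over retinoic acid held within each batch. The group means were 13.26 ± 0.16, 11.70 ± 0.32 and 9.04 ± 0.09 (SD, n = 4 each). With IL-1α the signal fell by 1.56 on the log2 scale (SE 0.15, adjusted p = 1.02e-05), a 2.95-fold difference. With retinoic acid it fell by 4.22 (SE 0.15, adjusted p = 6.44e-10), an 18.7-fold difference. The retinoic acid arrays lay 6.33-fold below the IL-1α arrays (adjusted p = 3.24e-08). Exchanging the 8 arrays of any pair of treatments gave an exact two-sided permutation p of 0.0286, the smallest that 4 arrays against 4 allow.

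The other Acan probe, ILMN_2645654, ran the same way. Its means were 13.22 ± 0.29 in untreated, 11.42 ± 0.39 in IL-1α and 8.88 ± 0.14 in retinoic acid arrays (SD, n = 4 each), again without overlap. It fell by 1.80 with IL-1α (adjusted p = 7.28e-07) and fell by 4.34 with retinoic acid (adjusted p = 1.69e-10). Before normalization its median intensity was 8808.5 in untreated, 2617.05 in IL-1α and 587.85 in retinoic acid arrays, so the signal was still detected on every retinoic acid array. Ordered from the strongest fall among the 18200 kept probes, these Acan probes stood 12th and 13th for retinoic acid against untreated, and 112th and 163rd for IL-1α against untreated.

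Within the batches the Acan probe ILMN_2639818 differed with IL-1α by -1.79 in batch 1 and -1.33 in batch 2, and with retinoic acid by -4.13 and -4.32. The gap between retinoic acid and IL-1α was therefore -2.34 in batch 1 and -2.98 in batch 2, a difference of -0.65 (95% CI -1.11 to -0.18) that did not pass the test over all probes (adjusted p = 0.0853). This difference did pass under 5 of the 20 alternative settings, with adjusted p from 0.0414 to 0.0499, so its call rests on the setting.

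Hapln1 encodes the link protein of cartilage, which locks aggrecan onto hyaluronan, and its single probe fell in the same order as Acan. The probe ILMN_2753342 read 8.39 and 8.27 in the untreated arrays of batch 1 and 11.41 and 10.69 in those of batch 2. With IL-1α it read 7.18, 7.02, 9.97 and 9.61. With retinoic acid it read 5.01, 4.96, 7.84 and 7.63, and it was not detected on either retinoic acid array of batch 1. Within each batch the 3 treatments were cleanly apart, but the batch gap was so wide that the pooled groups overlapped for IL-1α against untreated (exact permutation p = 0.314) and for retinoic acid against IL-1α (exact permutation p = 0.171). In the model with batch and replicate, Hapln1 fell by 1.25 with IL-1α (SE 0.12, adjusted p = 6.14e-06) and fell by 3.33 with retinoic acid (adjusted p = 5.48e-10), a value that includes the undetected arrays of batch 1. With IL-1α it fell by 1.23 in batch 1 and fell by 1.26 in batch 2. With retinoic acid it fell by 3.32 in batch 2, and in batch 1, where the probe was below detection, retinoic acid lay at least 7.9-fold under untreated and at least 3.37-fold under IL-1α. These bounds set the brighter group against the higher of the probe's own signal and the lowest detected signal on each undetected array.

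Batch 2 exceeded batch 1 at the Hapln1 probe by 2.72 in untreated and 2.69 in IL-1α arrays, and with retinoic acid the gap has no value, as the probe was below detection in batch 1. Averaged over untreated and IL-1α arrays, a gap at least this large was found for 1.55% of all kept probes, and the median size over all probes was 0.54. For the Acan probes this average was 0.30 and 0.54. The line and the batch differ together here, so which of them the Hapln1 gap follows cannot be told apart. The effect of IL-1α on Hapln1 in batch 2 minus that in batch 1 was -0.03 (95% CI -0.65 to 0.58, adjusted p = 0.965), and that of retinoic acid cannot be compared between the batches.

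Markers of cartilage cells moved together with Acan and Hapln1. Of 9 chondrocyte markers other than the members, 7 were kept, and Matn3 and Cnmd were not. With IL-1α 5 of these 7 were lower and none higher, and with retinoic acid all 7 were lower, both against untreated and against IL-1α. Of all kept probes 14.1% were lower with IL-1α, and 17.1% and 15.8% with retinoic acid against untreated and against IL-1α. The 5 lower with IL-1α became 3 without IL-1α replicate 2 of batch 1 or under scaling to one median, and 1 with no batch and no replicate term. They became 4 with no filter on detection, without untreated replicate 2 of either batch, or without IL-1α replicate 2 of batch 2. They became 6 with no background correction, an offset of 50 or robust eBayes. The collagen II gene Col2a1 differed by -0.20 with IL-1α (adjusted p = 0.468) and fell by 1.42 with retinoic acid (adjusted p = 6.83e-05). Sox9, the transcription factor that maintains cartilage genes, fell by 0.44 (adjusted p = 0.012) and fell by 1.91 (adjusted p = 5.38e-08). Matn1, the gene for the matrix protein matrilin-1, fell by 1.81 and fell by 5.01, further than Acan. The signal summed over these 7 markers on the linear scale ranged from 67200 to 80400 in untreated, from 42400 to 57300 in IL-1α and from 14800 to 21000 in retinoic acid arrays. In RNA from whole explants fewer chondrocytes and less RNA per chondrocyte cannot be told apart, and what part the loss of marker signal has in the Acan and Hapln1 differences was not tested.

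**Figure D2:**
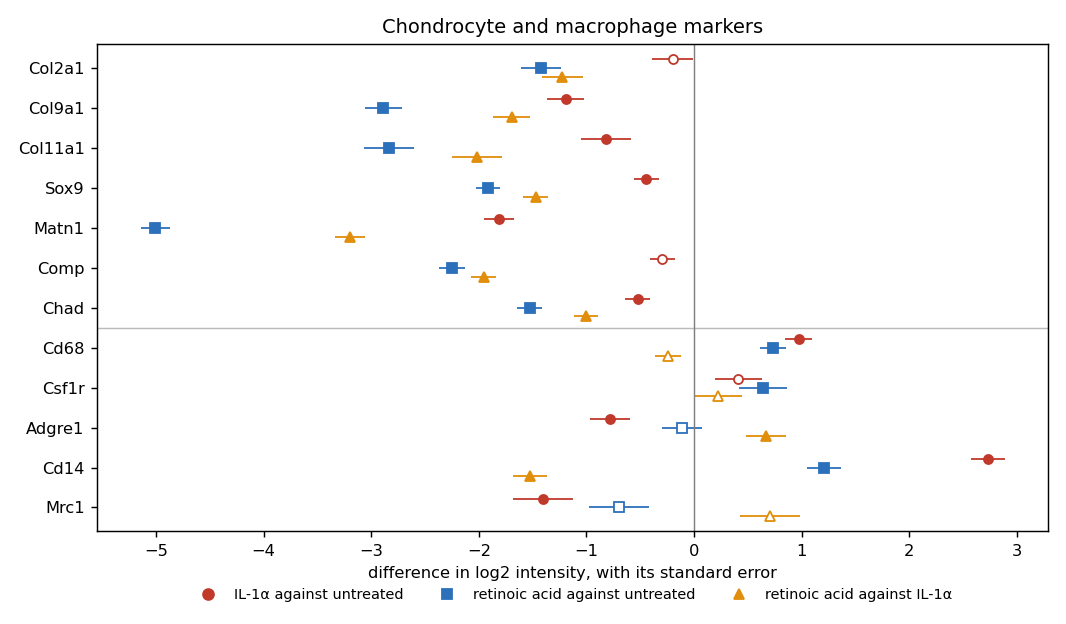
Difference in log2 intensity (x axis, with its standard error) of the kept chondrocyte and macrophage markers (y axis, by brightest kept probe) in the 3 comparisons, filled where the adjusted p was under 0.05 and open where not. All 7 chondrocyte markers lie left of 0 for retinoic acid, and the macrophage markers lie on both sides.

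The probes most like Acan and Hapln1 over the 12 arrays were also sought, by the correlation of their deviations after batch and replicate were removed. For Acan they were Rab17 (r = 0.9979), Npal2 (r = 0.9977) and Matn1 (r = 0.9975), and for Hapln1 they were Glt25d2 (r = 0.9975), Glt8d2 (r = 0.9971) and H2-Ab1 (r = 0.996). These are descriptions over 12 arrays that share the same treatments and form 3 clusters. The same search for Tnfaip6 was void, as it had no probe.

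Vcan, the gene for versican, a relative of aggrecan more usual in loose and developing tissue, was near background. Its 3 probes were detected on at most 2 of 12 arrays each and read between 4.48 and 5.09, and the lowest detected signal of an array lay between 4.86 and 5.48. A probe under Cspg2, an older symbol of the same gene, was detected on no array. No difference in Vcan could be measured at this signal, which does not show that the transcript was absent.

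Of the hyaluronan synthases, Has2 fell with both agents, and the dim Has1 signal was slightly higher with IL-1α and below detection with retinoic acid. Has2, the main synthase of cartilage, read 8.004, 7.91, 8.31 and 8.33 in untreated arrays, 7.45, 7.68, 7.91 and 7.65 with IL-1α, and 6.70, 6.63, 7.55 and 7.31 with retinoic acid. The untreated arrays lay above all others, and the IL-1α and retinoic acid arrays overlapped when pooled but not within a batch. Has2 fell by 0.47 with IL-1α (SE 0.14, adjusted p = 0.0226) and fell by 1.09 with retinoic acid (SE 0.14, adjusted p = 4.24e-05), a 2.13-fold difference. The IL-1α call was lost under 9 of 23 alternative settings, with adjusted p up to 0.309. Among them were 6 in which 1 array was left out, each untreated array but replicate 1 of batch 2 and each IL-1α array but replicate 2 of batch 1, with differences from -0.47 to -0.38 and adjusted p from 0.0545 to 0.0828. Retinoic acid lay 1.54-fold below IL-1α (adjusted p = 0.00346), with a log2 difference of -0.90 in batch 1 and -0.35 in batch 2. That call was lost when arrays were scaled to one median (-0.51, adjusted p = 0.0859), and the difference between batches did not pass (adjusted p = 0.132).

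Has1, which encodes another synthase of the same membrane family, gave a dim signal with its probe ILMN_2592106, and its other probe was detected on no array. It was detected on 3 of 4 untreated, 3 of 4 IL-1α and 0 of 4 retinoic acid arrays. It read 5.13, 5.64, 5.54 and 5.32 in untreated arrays, 5.43, 5.75, 6.16 and 5.98 with IL-1α, and 4.67, 4.99, 4.95 and 4.86 with retinoic acid. The untreated and IL-1α arrays overlapped, and the retinoic acid arrays lay below both. With IL-1α Has1 was higher by 0.42 (SE 0.12, adjusted p = 0.0224), 0.21 in batch 1 and 0.64 in batch 2, and 9 of 21 alternatives lost this call, with adjusted p up to 0.253. It was lost without untreated replicate 1 of batch 1 or without any 1 of the untreated and IL-1α arrays of batch 2, at 0.34 to 0.44 and adjusted p from 0.0525 to 0.0911. With retinoic acid it lay below detection, at least 1.16-fold under untreated (adjusted p = 0.00436) and at least 1.56-fold under IL-1α (adjusted p = 5.74e-05). In batch 1 these bounds were only 1.03-fold and 1.18-fold. They include the undetected batch 1 array of each brighter group at its own signal. The probe passed the detection filter only through untreated and IL-1α arrays, so these adjusted p-values are no independent support for a fall.

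Hyal2 rose with retinoic acid, and Hyal1 passed no test. Hyal2, which encodes a surface-anchored enzyme that cuts long hyaluronan, read 10.54, 10.67, 10.37 and 9.96 in untreated arrays at its brighter probe ILMN_1230039. It read 10.29, 10.31, 9.75 and 9.63 with IL-1α and 11.17, 11.26, 10.86 and 10.82 with retinoic acid. The retinoic acid arrays lay above all others, and the untreated and IL-1α arrays overlapped when pooled but not within a batch. With retinoic acid this probe rose by 0.64 (SE 0.12, adjusted p = 0.000717), a 1.56-fold difference, and it stood 2.04-fold above IL-1α (adjusted p = 1.47e-05). With IL-1α it fell by 0.39 (SE 0.12, adjusted p = 0.023), a call lost under 8 of 23 alternatives with adjusted p up to 0.419. Of single arrays, leaving out replicate 2 of batch 1 in either group, untreated replicate 1 of batch 2, or one of the batch 2 arrays with IL-1α, lost it, at -0.41 to -0.33 and adjusted p from 0.0537 to 0.0809.

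The dimmer Hyal2 probe ILMN_2503980 also rose with retinoic acid, from 5.79 ± 0.55 to 6.71 ± 0.22 (SD, n = 4 each), by 0.92 (adjusted p = 0.000295). It differed from the brighter probe for IL-1α, where its difference was -0.03 (95% CI -0.34 to 0.29, adjusted p = 0.918), 0.24 in batch 1 and -0.29 in batch 2. The rise of Hyal2 with retinoic acid was thus read by both probes, whereas its fall with IL-1α was read by 1 of 2. For the dimmer probe the rise with retinoic acid was 1.23 in batch 1 and 0.62 in batch 2 (adjusted p of the difference 0.211).

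Hyal1, which encodes a lysosomal hyaluronidase and lies next to Hyal2 in the genome, passed the test in none of the 3 comparisons at either probe. Its brighter probe ILMN_2644375 averaged 6.86 ± 0.39 in untreated, 7.14 ± 0.11 in IL-1α and 6.86 ± 0.13 in retinoic acid arrays (SD, n = 4 each). The difference with retinoic acid was -0.01 (95% CI -0.37 to 0.36) and with IL-1α 0.28 (95% CI -0.09 to 0.64). One untreated array of batch 1 read 6.29, and the other 3 untreated arrays read 7.03 to 7.11. The dimmer probe ILMN_1253049 differed by 0.29 with IL-1α (95% CI 0.03 to 0.55, adjusted p = 0.0918) and 0.13 with retinoic acid (95% CI -0.13 to 0.40).

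Cd44, the gene for the main surface receptor of hyaluronan, responded to IL-1α. Its kept probe ILMN_1223697 read 9.20, 8.89, 8.71 and 8.64 in untreated arrays, 10.61, 10.51, 10.52 and 10.38 with IL-1α, and 9.002, 9.09, 8.78 and 8.62 with retinoic acid. All 4 IL-1α arrays lay above the other 8, and the untreated and retinoic acid arrays overlapped. With IL-1α it rose by 1.65 (SE 0.12, adjusted p = 6.02e-07), a 3.13-fold difference, by 1.51 in batch 1 and 1.78 in batch 2. With retinoic acid the difference was 0.01 (95% CI -0.24 to 0.27, adjusted p = 0.941). Retinoic acid lay 3.1-fold below IL-1α (adjusted p = 2.45e-07), and the rise with IL-1α stood 121st from the strongest rise among the 18200 kept probes. The other 8 Cd44 probes were each detected on at most 2 arrays and read between 4.43 and 5.46, so the rise was read by 1 of the 9 probes of the gene.

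Cd44 is also carried by leukocytes, and the macrophage list was therefore read beside it. Of 7 macrophage and monocyte markers 5 were kept, and Itgam and Ptprc, the general leukocyte marker, were not. With IL-1α Cd14, a receptor for bacterial products, rose by 2.73 (adjusted p = 1.32e-07) and Cd68, a lysosomal protein, by 0.97 (adjusted p = 9.15e-05), while the macrophage receptor genes Adgre1 and Mrc1 fell by 0.78 (adjusted p = 0.00682) and fell by 1.41 (adjusted p = 0.0023). Adgre1 was detected on 2 of 4 untreated and 2 of 4 IL-1α arrays, so its difference includes undetected signal. The summed signal of the 5 kept markers came mostly from Cd68 and Cd14. It ranged from 1670 to 2900 in untreated, from 3790 to 6640 in IL-1α and from 2500 to 4550 in retinoic acid arrays. For the 7 neutrophil markers, all kept, the ranges were 9710 to 16200, 16900 to 17700 and 5630 to 14800, and none passed with IL-1α. The part of these cells in the Cd44 rise was not tested. Markers of further cell types were measured in the same RNA. Beside their counts, 15.2% of all kept probes were higher and 14.1% lower with IL-1α, and 18.2% and 17.1% with retinoic acid. With IL-1α 2 of 5 endothelial, 4 of 5 fibroblast and synovium and 3 of 4 osteoblast markers were lower and none higher, 2 of 3 osteoclast markers were higher and none lower, and none of 3 erythroid markers passed. With retinoic acid 3 of the 5 macrophage markers were higher, none of the 5 endothelial markers passed, 1 fibroblast and synovium marker was higher and 4 lower, 3 osteoblast markers were lower, 2 osteoclast markers were higher, 5 neutrophil markers were lower, and no erythroid marker passed. Markers on the lists for bone, blood and vessel cells were thus detected in the explants beside those of cartilage, and which cells gave their signal was not tested. Csf1r, among the macrophage markers higher with retinoic acid, was near the lowest detected signal. It rose by 0.64 (adjusted p = 0.0388) and was detected on 1 of 4 untreated and 2 of 4 retinoic acid arrays. Its difference therefore includes undetected signal. Several of the small marker counts rest on single arrays. The 5 neutrophil markers lower with retinoic acid became 2 without either untreated array of batch 1 or without retinoic acid replicate 2 of batch 1, 3 without retinoic acid replicate 1 of batch 1 or under median scaling, and 1 with no filter on detection. The 2 osteoclast markers higher with IL-1α became 1 without any 1 of 5 arrays (both of batch 1 in each group, and untreated replicate 2 of batch 2), 3 without untreated replicate 1 of batch 2, and 0 under median scaling. The 2 osteoclast markers higher with retinoic acid became 1 without untreated replicate 1 of batch 1 or retinoic acid replicate 2 of batch 2. Among the lists with no call, leaving out 1 array gave at most 1 higher marker in the neutrophil and erythroid lists for IL-1α and in the endothelial list for retinoic acid.

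**Figure D3:**
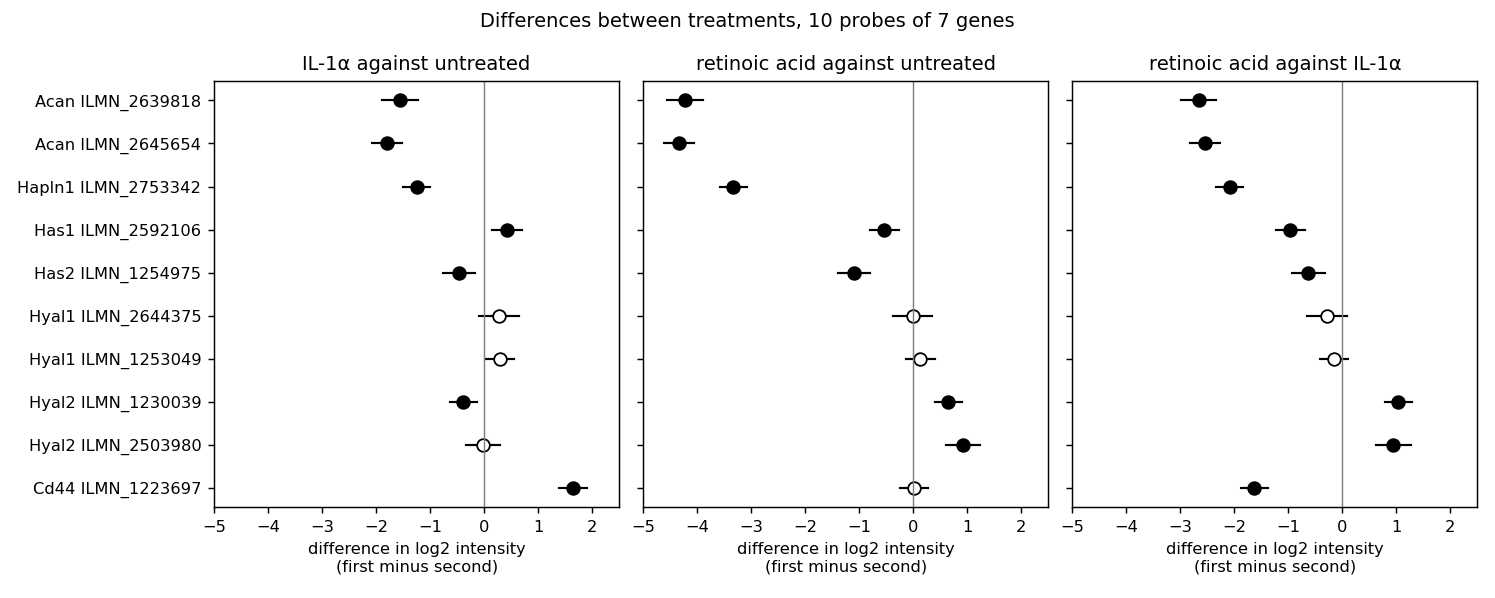
Difference in log2 intensity (x axis, first treatment minus second, with its 95% confidence interval) of the 10 kept probes (y axis) in the 3 comparisons, filled where the adjusted p was under 0.05. Acan and Hapln1 lie left of 0 in every panel, Hyal2 lies right of 0 in both panels with retinoic acid, and Cd44 lies right of 0 for IL-1α alone.

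The effects were then compared between the batches. In none of the 3 comparisons did a member probe pass the test of the difference itself, where 4.82%, 2.86% and 8.76% of all kept probes did. With retinoic acid Has1 in both batches and Hapln1 in batch 1 were below detection, so the test says nothing of these. At an unadjusted p under 0.05 there were 2, 1 and 2 such member probes. The 2 for IL-1α were Hyal1 ILMN_2644375, at 0.57 in batch 1 and -0.02 in batch 2, and Hyal2 ILMN_2503980. The probe for retinoic acid against untreated was again Hyal2 ILMN_2503980. The 2 for retinoic acid against IL-1α were Acan ILMN_2639818 and Has2. With 2 arrays per treatment and batch this test has little power, and a p that misses the threshold does not show equal effects.

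**Figure D4:**
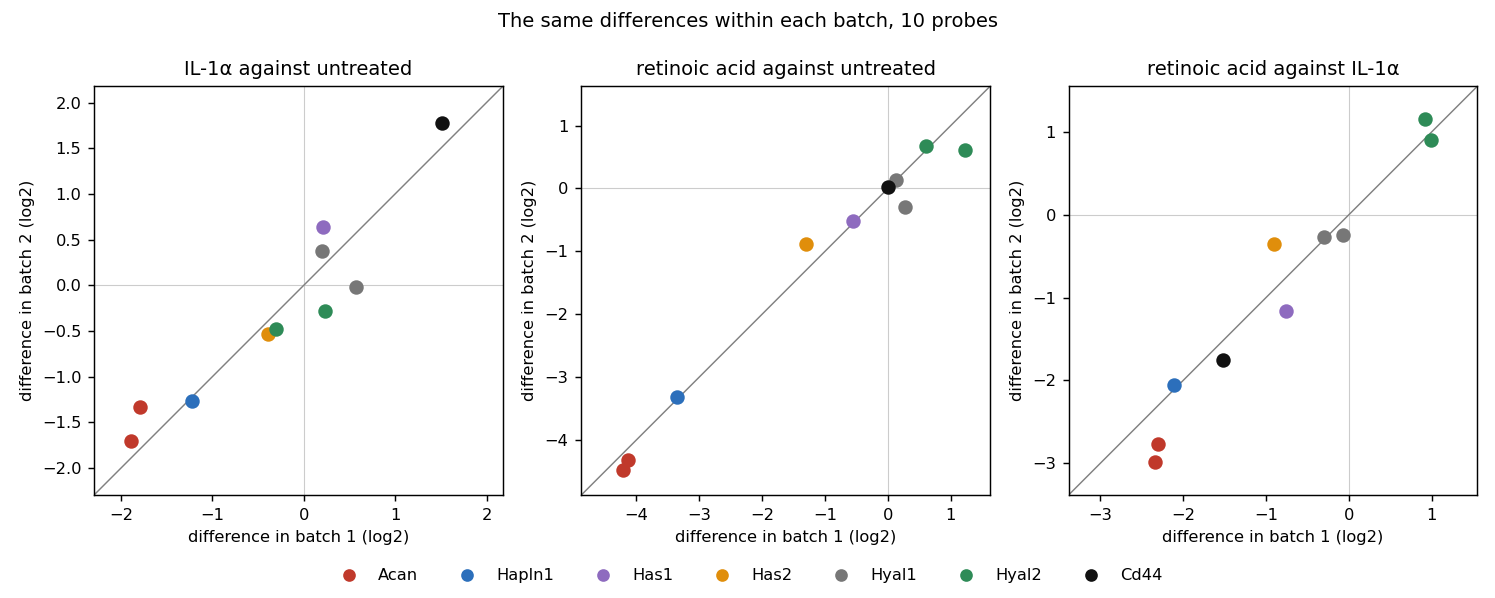
Difference of each kept member probe within batch 2 (y axis, log2) against that within batch 1 (x axis, log2) in the 3 comparisons, coloured by gene, with the line of equal effects. Acan, Hapln1 and Cd44 lie on the same side of 0 in both batches wherever they were called, though Hapln1 with retinoic acid was below detection in batch 1. The brighter Hyal1 probe and the dimmer Hyal2 probe cross 0 for IL-1α.

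Around the members, 38 further genes of lectican and hyaluronan biology were listed in 6 groups. Of these 36 had a probe and 22 a kept one, and each gene was read by its brightest kept probe. With IL-1α 2 of the 22 genes were higher and 9 lower, with retinoic acid 7 were higher and 10 lower, and between retinoic acid and IL-1α 8 were higher and 4 lower. Of all kept probes 15.2% were higher and 14.1% lower with IL-1α, 18.2% and 17.1% with retinoic acid, and 15.2% and 15.8% between the agents. Itih3, Itih5 and Cemip are among the genes called, and each would not have passed the detection filter without the group where it was high. Genes are described where they passed a test with a difference over 1 on the log2 scale, and Hapln3, Cemip2, Gusb, Hexa, Hyal3, Gfpt1, Gfpt2, Uap1 and Pgm3 are named beside them, chosen after their values were seen.

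Of the other lecticans and link proteins only Hapln3 was kept, which lies beside Acan, and it fell by 0.69 with IL-1α (adjusted p = 0.0299) and fell by 0.69 with retinoic acid (adjusted p = 0.0243), calls that 11 and 10 of the alternative settings lost. Leaving out any 1 of 6 arrays lost each call, among them both untreated arrays of batch 1 and untreated replicate 1 of batch 2, with adjusted p up to 0.112 and 0.104. Bcan, Hapln2 and Hapln4 were not kept.

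Among the other hyaluronan receptors 3 of 5 genes were kept, with 1 higher and 2 lower for IL-1α and 1 higher and 1 lower for retinoic acid, the lower one (Stab2) being lost without untreated replicate 1 of batch 1. Layn, which encodes the receptor layilin, followed the pattern of Cd44. It rose by 1.46 with IL-1α (adjusted p = 1.53e-05) and differed by -0.01 with retinoic acid (adjusted p = 0.961). Stab1, which encodes the scavenger receptor stabilin-1 of macrophages and sinus endothelium, fell by 1.09 with IL-1α (adjusted p = 0.00023) and rose by 1.18 with retinoic acid (adjusted p = 6.68e-05). Stab2, the clearance receptor of liver and lymph node sinuses, was detected on no IL-1α array and lay there at least 1.64-fold below untreated (adjusted p = 0.000201). Hmmr and Lyve1 were not kept.

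Of the genes for breakdown of hyaluronan 5 of 9 were kept, with none called for IL-1α, and 3 higher and 1 lower for retinoic acid. For IL-1α 3 of the 5 narrowly missed the threshold, and Gusb (adjusted p = 0.0532), the beta-hexosaminidase gene Hexa (adjusted p = 0.0591) and Hyal3 (adjusted p = 0.051) were called under 8, 7 and 3 of the alternative settings, Gusb higher and the others lower. Cemip, which encodes a protein needed for hyaluronan breakdown in skin fibroblasts and which the array lists as 9930013L23Rik, rose by 2.47 with retinoic acid (SE 0.28, adjusted p = 1.78e-05). It was detected on 1 of 4 untreated, 0 of 4 IL-1α and 4 of 4 retinoic acid arrays, and stood at least 4.03-fold above IL-1α (adjusted p = 9.82e-06). The size of its rise against untreated therefore includes undetected signal. Without the retinoic acid arrays the probe would not have passed the detection filter. Its retinoic acid arrays ran from 6.26 to 8.41, all above the untreated range of 4.51 to 5.06. Cemip2, a relative of Cemip, rose by 0.57 (adjusted p = 0.00548) at 1 of 2 probes, and Gusb, the lysosomal beta-glucuronidase gene, by 0.74 (adjusted p = 0.000939). The lower one was Hyal3, which was detected on 3 of 4 untreated and 0 of 4 retinoic acid arrays, near the lowest detected signal, so that no fold can be given (adjusted p = 0.0123). Its call was lost without untreated replicate 2 of batch 1 (adjusted p = 0.058) or retinoic acid replicate 2 of batch 2 (adjusted p = 0.0521).

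Of 8 genes that make the sugar precursors of hyaluronan 5 were kept, and Ugdh, Gnpnat1 and Uxs1 were not. With retinoic acid 4 of the 5 were lower and none higher, and Gfpt1 differed by -0.10 (adjusted p = 0.638). With IL-1α 1 was lower, which became 2 without any 1 of 3 arrays of batch 2 (untreated replicate 1 and both with IL-1α). The 4 lower with retinoic acid became 2 without either retinoic acid array of batch 2, under median scaling and with no filter on detection. Leaving out 1 array lost the call of Uap1 for 5 arrays and that of Pgm3, detected on no retinoic acid array, for 4. Gfpt2, an enzyme at the head of hexosamine synthesis, fell by 0.55 with IL-1α (adjusted p = 0.00241) and fell by 0.83 with retinoic acid (adjusted p = 5.87e-05). None of these differences exceeded 1 on the log2 scale, and the median of the list was -0.78 with retinoic acid.

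The inter-alpha-trypsin inhibitor family supplies the heavy chains that TSG-6 moves onto hyaluronan, and pentraxin 3 joins that matrix. Of 7 such genes 4 were kept. Itih2 fell by 1.58 with IL-1α (adjusted p = 5.69e-06) and rose by 1.60 with retinoic acid (adjusted p = 2.12e-06). It was detected on 2 of 4 IL-1α arrays, so the size of its fall includes undetected signal. Itih3 was detected on all 4 untreated arrays and on none with either agent, and lay at least 1.99-fold lower with IL-1α (adjusted p = 1.67e-06) and at least 2.08-fold lower with retinoic acid (adjusted p = 6.52e-07). Itih5 was detected on the 4 retinoic acid arrays and no others, at least 2.18-fold above untreated (adjusted p = 0.000311). Itih3 and Itih5 passed the detection filter only through the group where each was high, so their adjusted p-values are no independent support. Ptx3, the pentraxin 3 gene, rose by 1.201 with IL-1α (adjusted p = 0.00083) and fell by 1.39 with retinoic acid (adjusted p = 0.000156). It was detected on 2 of 4 retinoic acid arrays, so the size of this fall includes undetected signal too. Its untreated arrays ran from 5.47 to 9.23.

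The matrix proteins that bind lecticans gave 3 lower with IL-1α, and 1 higher and 1 lower with retinoic acid, of 4 genes kept. Fbln1, the fibulin-1 gene, fell by 1.55 with IL-1α (adjusted p = 2.13e-05) and rose by 1.72 with retinoic acid (adjusted p = 3.53e-06). Tnc, the tenascin-C gene, fell by 1.60 with IL-1α (adjusted p = 3.59e-05) and differed by -0.36 with retinoic acid (adjusted p = 0.143) at its brightest probe. With IL-1α 2 of its 3 kept probes were called lower, and their differences ran from -1.60 to -0.14. Fbln2, the fibulin-2 gene, fell by 1.32 with retinoic acid (adjusted p = 9.19e-05) at its brightest probe, and its other kept probe differed by 0.24 without a call. With IL-1α its brightest probe fell by 0.80 (adjusted p = 0.00557), and the other differed by 0.32 without a call. Of the 9 genes in these lists with several kept probes, no 2 probes of one gene were called in opposite directions.

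**Figure D5:**
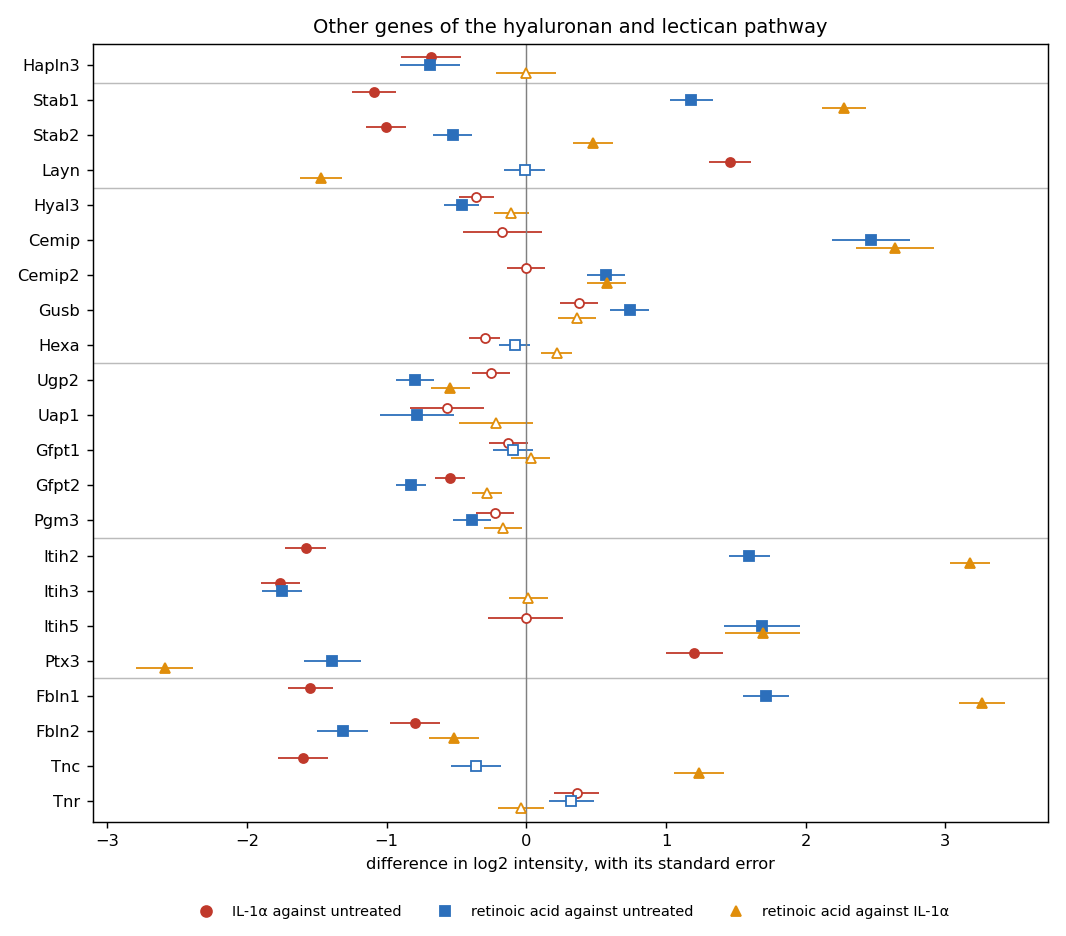
Difference in log2 intensity (x axis, with its standard error) of the 22 kept genes of the pathway lists (y axis, grey lines between lists), with circles for IL-1α against untreated, squares for retinoic acid against untreated and triangles for retinoic acid against IL-1α, filled where the adjusted p was under 0.05. Stab1, Itih2 and Fbln1 lie left of 0 for IL-1α and right of 0 for retinoic acid, and Ptx3 the other way round. Cemip lies at 2.47 for retinoic acid, a value that includes undetected untreated signal.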

How the data were processed

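RNA of 12 explant cultures was hybridised to Illumina Sentrix Mouse 1.1 bead arrays, 4 per treatment. The authors deposited linear intensities of all probes that had been neither background-corrected nor normalized, beside a detection score that rises with intensity. The detection p was taken as 1 minus this score. How beads were summarised is not given in the sources used here, and the submitters' processing notes name limma. Of the columns of values, 0 were left without an array.

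The analysis used limma 3.58.1 in R 4.3.3. The neqc function estimated background from the detection p, applied quantile normalization, added an offset of 16 and took log2. Probes detected at p under 0.05 on at least 4 of 12 arrays were kept. The model, fitted over all kept probes, held the treatments and a joint batch and replicate factor (4 levels), after the study's methods, with Benjamini-Hochberg adjustment and a threshold of 0.05. A model of 6 groups tested whether effects differed between batches. The scripts were tested on simulated data. The number of arrays limits the precision.

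A group without any detection was given its probe's signal or, if larger, the dimmest detected signal of each array, and the fold against the brighter group is then a bound. Members, marker lists and pathway lists were chosen with earlier results of these data known. Named by rule were all member probes, pathway genes called with a difference over 1 on the log2 scale (by the brightest kept probe), the 3 probes most correlated with Acan and with Hapln1, and the check genes Cyp26a1, Nos2, Adamts4 and Adamts5, and single markers were named after their values were seen. Of 34509 array symbols, 16333 were current RefSeq symbols. Alternatives were other background, scaling, offset, detection filter, model and eBayes settings, and leaving out each array.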

Additional observations from a re-analysis of the deposited data

Results flagged for a closer look

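Of 30 groups of 4 arrays examined, 1 held an array far from the others, and chance gives about 1 such group in 20. At the Hyal1 probe ILMN_2644375 the untreated replicate 1 of batch 1 read 6.287, and the other untreated arrays read 7.025 to 7.106, a gap of 0.901 of the whole range. Without that array the Hyal1 difference with IL-1α was 0.05 (adjusted p = 0.821) and with retinoic acid -0.24 (adjusted p = 0.195).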

How the results depend on the processing

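The 30 log2 differences of the member probes were recomputed under 11 alternative settings and without each of the 12 arrays. Of 675 recomputed values 642 stayed on the same side of the threshold, 33 lost the call, and 0 gained one or turned a called direction. The Acan and Cd44 calls were kept under every alternative run. The calls of Has1, Has2 and Hyal2 ILMN_1230039 for IL-1α were lost under 9, 9 and 8 alternatives, and their causes were not tested. Under scaling to one median 4 member probes passed for IL-1α, against 7. With treatment only, no batch and no replicate term, 3, 4 and 6 passed for IL-1α against untreated, retinoic acid against untreated and retinoic acid against IL-1α, and 5, 8 and 7 genes of the pathway lists, since the batch gaps then enter the spread. The Hapln1 calls were then lost, with adjusted p of 0.651, 0.0503 and 0.277. With detection on all 12 arrays 7 pathway genes passed for IL-1α and 8 for retinoic acid against untreated, and with detection p under 0.01, 11 for the latter, from fewer genes tested. Of 1461 recomputed values of the pathway genes 1350 kept their side of the threshold, 80 lost the call, 31 gained one and 0 turned. Leaving out 1 array gave 4 to 7 member probes for IL-1α, with 4 without either IL-1α array of batch 2.

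No member probe differed between batches in the main setting. Leaving out 1 array gave 0 to 1 in each comparison. The 1 was Hyal1 ILMN_2644375 for IL-1α (adjusted p = 0.0253) and for retinoic acid (adjusted p = 0.0442) without untreated replicate 2 of batch 1, and Acan ILMN_2639818 for retinoic acid against IL-1α without either untreated array of batch 2. For retinoic acid against IL-1α 1 probe passed with no background correction, with an offset of 50 and with robust eBayes (Acan ILMN_2639818 each time), with median scaling (Has2), with normalization within each batch (Has1), and with no filter (Cd44 ILMN_2457060). Has1 was detected on no retinoic acid array and this Cd44 probe on no array at all, so their passing says nothing of a batch difference. Scaling to one median moved the median difference of all probes from 0.02 to 0.14 for retinoic acid against untreated. Among all calls the share of higher ones then went from 51.6% to 65.6%, and from 49.0% to 65.6% for retinoic acid against IL-1α.

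Correlations of deviations between same-numbered arrays ran from 0.003 to 0.062 in batch 1 and from -0.108 to 0.391 in batch 2. Replicate numbers thus gave no pairing that held across the batches and treatments, and the replicate factor was kept after the study's methods. Without the replicate block 7, 7 and 8 member probes passed, as with it. Signals near the lowest detected level, as for Has1 and Vcan, limit what can be measured.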
